A study of Mus musculus with 62 samples.

Results

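The sites described here were the accessible distal sites of mouse quadriceps that carried both enhancer marks. They were chosen by measured values: a peak of transposase-accessible chromatin (ATAC-seq) had to overlap, by at least 1 bp, an H3K27ac peak and an H3K4me2 peak of Quad, and every overlapping histone peak had to lie over 2000 bp from a transcription start site (TSS). Of 44911 Quad ATAC peaks, 10491 (23.4%) met the rule. They were 51.8% of the ATAC peaks that overlapped both marks, and they fell into 8982 of 40949 Quad H3K27ac peaks, which are called member enhancers below, and into 9283 of 43525 Quad H3K4me2 peaks. The study covered 62 libraries from mice labelled C57BL/6, which the methods give as male C57BL/6J. Quad, EDL (extensor digitorum longus), Sol (soleus) and Dia (diaphragm) came from wild-type sedentary mice with 2 histone libraries per mark. A histone library of Quad held 1 muscle of 1 animal, whereas those of EDL, Sol and Dia pooled animals. Further Quad groups, also with 2 libraries per mark, were wild-type sedentary mice (Sed), wild-type mice given running wheels (Ex), wild-type littermates (Wt) and sedentary mice with the PGC1a Tg(+) genotype (mTg), in which Pgc1a is overexpressed in skeletal muscle. The ATAC list came from 3 sedentary wild-type control samples pooled before peak calling, so a site has 1 ATAC value and no replicate error. Ages were in the methods only, in weeks at purchase and at the start of wheel running, and not in the labels.

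Enhancers are stretches of DNA that raise transcription of a gene from a distance, and the part bound by transcription factors is usually a short nucleosome-free core that the transposase can cut. H3K4me2 marks enhancers and promoters, active or poised, and H3K27ac is added on the flanking nucleosomes when a region is active. In skeletal muscle, MyoD family proteins bind E-boxes, MEF2 proteins bind an A/T-rich element, and nuclear receptors such as the ERR family, partners of PGC1α, bind a short hexamer.

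The sequences below are examples, picked from strong or multi-site enhancers, and do not represent all members. Each is the ATAC peak on the plus strand of the mm10 build (GRCm38 RefSeq sequence), 195 bases 5′ to 3′, with matches to 6 short words in capitals, on either strand: the E-box CAGCTG, the MEF2 word (CTA and TAG separated by any 4 bases), the nuclear receptor word AGGTCA, the AP-1 word TGANTCA, the SP1 word GGGCGG and the NFY word CCAAT. The first 3 are among the 5 sites of highest signal. The Tob2, Rcsd1, Hspg2 and Myl1 sites are from enhancers with 5 sites, and each is the strongest of its enhancer among the sites that overlapped no annotated UTR. The Smox site lies in an enhancer called in Quad and EDL only, and the Tspan15 site in one called in Quad and in Sol or Dia but not in EDL.
Fbrs site, chr7:127477859-127478053: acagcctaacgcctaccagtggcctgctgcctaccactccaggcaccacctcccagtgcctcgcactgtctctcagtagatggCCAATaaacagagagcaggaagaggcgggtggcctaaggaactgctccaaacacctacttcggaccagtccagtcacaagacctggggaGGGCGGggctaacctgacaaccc
Nfe2l1 site, chr11:96829997-96830191: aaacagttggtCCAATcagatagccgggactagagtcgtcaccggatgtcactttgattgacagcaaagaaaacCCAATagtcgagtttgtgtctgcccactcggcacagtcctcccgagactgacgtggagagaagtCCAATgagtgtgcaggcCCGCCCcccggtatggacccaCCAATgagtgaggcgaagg
Klf13 site, chr7:63938987-63939181: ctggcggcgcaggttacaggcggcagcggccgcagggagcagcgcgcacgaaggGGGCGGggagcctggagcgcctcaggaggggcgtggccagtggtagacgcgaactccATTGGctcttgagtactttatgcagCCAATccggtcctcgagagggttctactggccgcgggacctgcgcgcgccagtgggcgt
Tob2 site, chr15:81836487-81836681: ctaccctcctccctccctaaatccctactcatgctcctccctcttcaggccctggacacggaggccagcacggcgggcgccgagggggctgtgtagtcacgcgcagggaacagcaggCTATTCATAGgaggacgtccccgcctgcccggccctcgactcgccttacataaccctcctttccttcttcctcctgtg
Rcsd1 site, chr1:165677057-165677251: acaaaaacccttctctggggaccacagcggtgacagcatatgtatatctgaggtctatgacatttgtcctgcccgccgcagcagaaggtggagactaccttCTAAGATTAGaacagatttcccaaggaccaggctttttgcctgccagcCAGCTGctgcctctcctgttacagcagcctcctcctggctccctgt
Hspg2 site, chr4:137487709-137487903: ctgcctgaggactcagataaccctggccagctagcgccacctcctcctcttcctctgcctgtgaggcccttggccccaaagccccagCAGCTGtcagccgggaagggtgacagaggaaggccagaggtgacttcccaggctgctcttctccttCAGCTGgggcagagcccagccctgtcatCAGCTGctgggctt
Myl1 site, chr1:66943683-66943877: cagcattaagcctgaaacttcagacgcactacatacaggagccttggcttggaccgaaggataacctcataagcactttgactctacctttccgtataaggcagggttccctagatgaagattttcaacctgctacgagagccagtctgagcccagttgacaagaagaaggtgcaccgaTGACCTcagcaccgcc
Smox site, chr2:131506375-131506569: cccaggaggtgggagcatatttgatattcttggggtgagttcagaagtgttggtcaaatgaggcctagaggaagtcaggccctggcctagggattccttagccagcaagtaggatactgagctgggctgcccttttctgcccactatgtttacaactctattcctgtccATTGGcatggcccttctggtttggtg
Tspan15 site, chr10:62224311-62224505: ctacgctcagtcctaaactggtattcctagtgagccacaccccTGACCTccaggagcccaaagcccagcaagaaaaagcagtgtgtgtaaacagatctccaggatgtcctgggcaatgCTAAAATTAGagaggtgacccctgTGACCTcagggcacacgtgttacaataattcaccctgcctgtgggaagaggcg
The Fbrs, Nfe2l1 and Klf13 sites held CCAAT and GGGCGG but no E-box, MEF2, nuclear receptor or AP-1 word. The Tob2 site held 1 MEF2 word, the Rcsd1 site 1 MEF2 word and 1 E-box, the Hspg2 site 3 E-boxes, and the Tspan15 site 1 MEF2 word between 2 nuclear receptor words. MEF2 words were in 7.33% of all members (200 bp about the centre), so the printed sites are richer in them. Sites at Ip6k3 and Sorl1, picked in the same way, held none of the words and are not printed. The Fbrs, Nfe2l1, Klf13 and Myl1 sites lay within 2000 bp of a TSS of the reference annotation, as did 13.1% of members. A match is a match of letters only. It does not show that a factor was bound.

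The ATAC list rested on 79.0 M (mega, SI prefix) pooled tags, of which 4.26% lay in peaks. The 16 histone libraries of the 4 muscles held 15.3 to 24.2 M tags. Quad H3K27ac replicate 1 was the deepest of all at 24.2 M and replicate 2 held 15.3 M. Depth limits the calls of weak peaks, and a peak absent from a list was not called at that depth. All 95% intervals (Wilson) count regions and cover counting error only. Regions are not replicates, and neighbouring sites share an enhancer.

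Signal at member sites was moderate. The ATAC signal, in tags per 10 M, had a median of 7.97 and a middle range (25th to 75th percentile) of 5.76 to 11.7, from 2.72 to 50.8. Peaks with both marks near a TSS had a median of 13.0, peaks with H3K27ac alone 7.02, peaks with H3K4me2 alone 6.33 and peaks with neither mark 4.62. Members therefore lay between promoters and unmarked peaks, and the middle ranges of members and promoter peaks overlapped. Only 1 of the 100 strongest ATAC peaks and 53 of the 1000 strongest (5.30%) were members, against 2301 of the strongest 10000 (23%). By decile of signal, members made up 15.6% of the strongest decile, 32.6% of the third and 9.15% of the weakest.

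**Figure D1:**
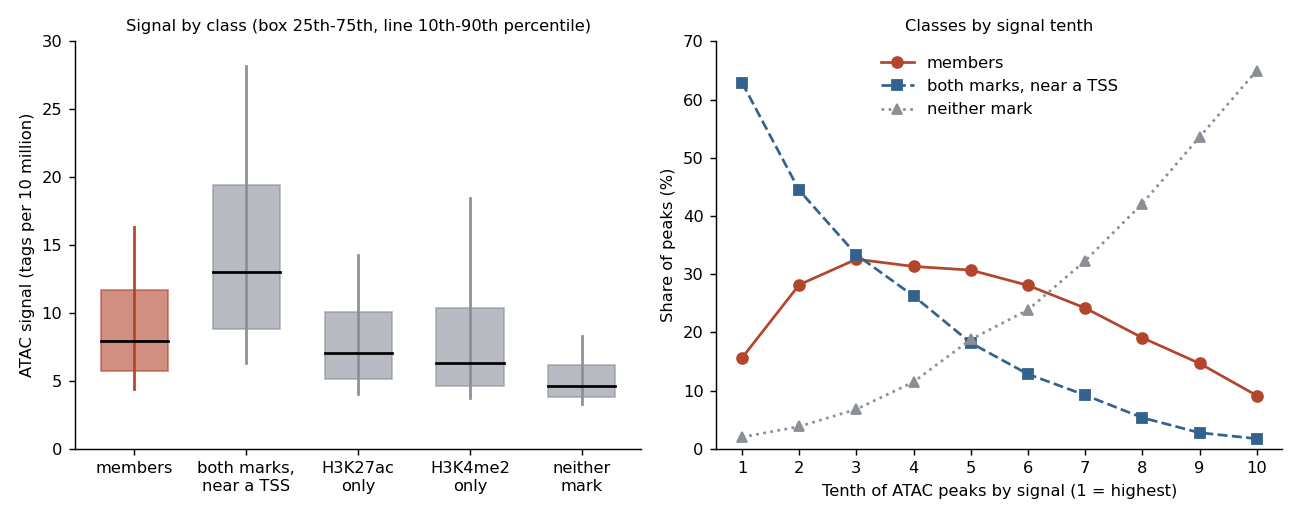
ATAC signal in tags per 10 M for the 5 classes of ATAC peak (left, black line the median, box the 25th to 75th percentile, thin line the 10th to 90th), and the share in percent of 3 classes in each decile of peaks by signal (right). Members have a median of 7.97, between 13.0 near a TSS and 4.62 with neither mark, and their share is highest, 32.6%, in the third decile.

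Most members were intronic (59.6%) or intergenic (33.9%), and 2.72% overlapped an untranslated region. The median distance to a TSS of the reference annotation was 12075 bp. However, the rule measured distance from the centre of the histone peak, so a site near the edge of a wide peak could sit on a promoter. This held for 1379 members (13.1%), which lay within 2000 bp of a reference TSS, 419 of them within 100 bp. They had a median signal of 10.2 against 7.78 for the other 9112, and they supplied 36 of the 53 members among the 1000 strongest peaks. The 5 strongest members were all of this kind. The strongest, at Fbrs, had a signal of 50.8 and lay 1243 bp from the Fbrs TSS. The next were 46.3 at 126 bp from the TSS of Nfe2l1, a stress-responsive bZIP factor gene, and 45.2 at 142 bp from that of Gatad2b, a subunit of the NuRD repressor complex. They were followed by 44.5 at 169 bp from the TSS of the Krüppel-like factor gene Klf13 and by 43.2 near the Chit1 gene at 115 bp from the TSS of Gm38140. Among members over 2000 bp from any reference TSS, named here after their values were seen, the strongest were assigned to Fos (42.0), Dnajc3 (41.1), Myt1l (39.0), Ssc4d (37.9) and Ap5z1 (36.6). The enhancers assigned to Dnajc3 and Myt1l lay at 69556 and -237429 bp from those TSSs. The Dnajc3 site lay in an intron of Uggt2 and the Ap5z1 site in an intron of Foxk1. The Fos site lay 18490 bp from the Fos TSS in a 2299 bp enhancer called in all 4 muscles.

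Just inside the threshold were a site near Mir125b-2 (histone peak 2001 bp from the TSS, signal 4.18) and a pair of sites near Ly6e (both 2002 bp, 8.04 and 7.53). Just outside it was a site near Ier5l (1998 bp, 17.8). The 260 members whose nearest histone peak centre lay 2000 to 2500 bp away had a median signal of 12.3, and the 388 sites left out at 1500 to 2000 bp had 12.4, so the medians of the bands on either side were close.

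Most enhancers held a single member site. Of 8982 member enhancers, 7732 held 1 site (86.1%, interval 85.4 to 86.8), 1051 held 2, 154 held 3, 31 held 4, 13 held 5 and 1 held 6. The 1250 enhancers with 2 or more sites (13.9%) held 2759 sites, 26.3% of all members. Neighbouring sites of 1 enhancer were a median of 1448 bp apart (1509 pairs), and 38.2% of pairs were at most 1000 bp apart. The peak caller allowed no pair closer than 388 bp. Sites lay towards the middle of their enhancer: 68.8% fell in its central 50%, and the median distance from its centre was 379 bp.

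Enhancers with more sites were wider and had a higher acetylation level. Median H3K27ac peak width was 2173 bp with 1 site, 4658 bp with 2, 9686 bp with 3 and 17071 bp with 4 or more. The H3K27ac level is given here as the deposited log2 tag value minus log2 of the width in kb. Its median was 6.01 and 6.01 in the 2 Quad replicates for 1 site, 6.76 and 6.71 for 2, 7.21 and 7.09 for 3, and 7.45 and 7.32 for 4 or more. The 5997 distal Quad H3K27ac peaks that also overlapped distal H3K4me2 but no ATAC peak (site-free regions) were 1178 bp wide at the median, with levels of 5.11 and 5.15. Both replicates gave the same order, and the replicate medians of no class overlapped those of the next, although the step from 3 sites to 4 or more was the smallest. The spread of levels among the enhancers of a class was not computed. H3K4me2 showed the same order, with 5.88 and 5.93 for 1 site and 6.85 and 6.92 for 4 or more. A wider region has more room for a site: 29.6% of the narrowest quintile of these distal regions (500 to 943 bp) held a member and 77.1% of the widest (3723 to 42455 bp), whereas sites per kb fell from 0.419 to 0.167. Across the 8982 enhancers the strongest ATAC signal and the H3K27ac level had a Spearman rho of 0.553 in replicate 1 and 0.560 in replicate 2, and across 9283 H3K4me2 peaks rho was 0.449 and 0.456. These points share libraries and a selection on all 3 measures, so the values are a description, as are all Quad levels in this paragraph.

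**Figure D2:**
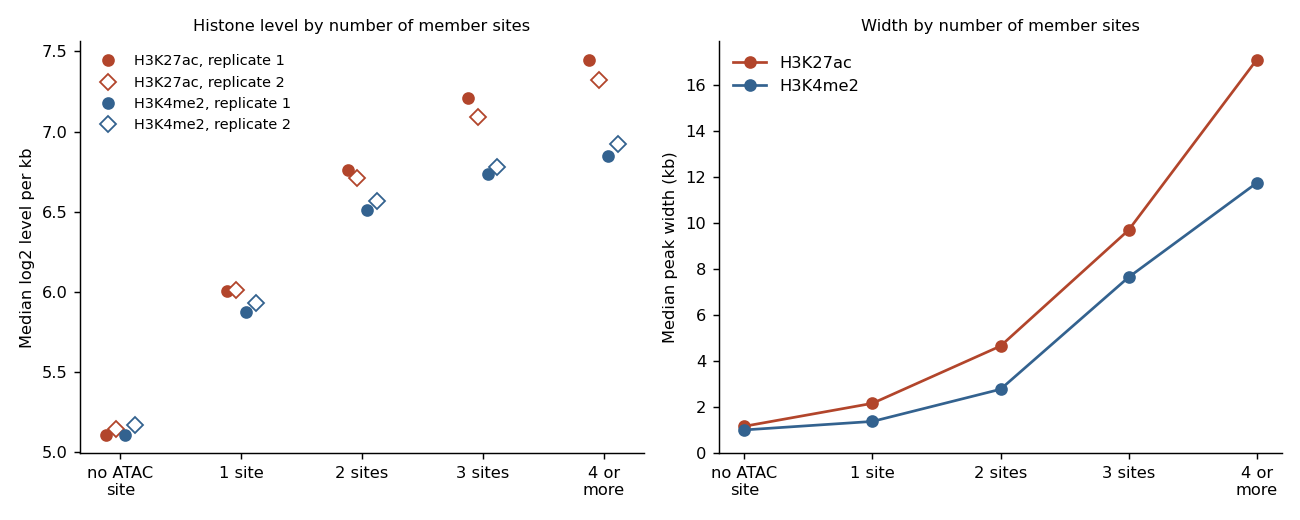
Median H3K27ac and H3K4me2 level in Quad (log2 per kb, 1 point per replicate, left) and median peak width in kb (right) for distal regions with no ATAC site and with 1, 2, 3 and 4 or more member sites. Median H3K27ac level goes from 5.11 and 5.15 without a site to 7.45 and 7.32 with 4 or more, and width from 1178 to 17071 bp.

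The 10 enhancers with the most sites were all called in EDL, Sol and Dia as well. The enhancer in the first intron of Ip6k3, an inositol hexakisphosphate kinase gene (chr17:27151733-27171633), held 6 sites with signals of 12.2, 11.7, 15.4, 16.3, 14.2 and 12.7. Its H3K27ac level was 7.96 and 7.79 in Quad, 8.53 and 8.39 in EDL, 7.53 and 7.22 in Sol, and 7.97 and 7.73 in Dia. EDL was highest in both replicates and Sol lowest, before the centring described below. Of the 13 enhancers with 5 sites, the 9 of highest summed signal were near Tob2, an antiproliferative factor gene, Usp2, a deubiquitinase, E030018B13Rik (within an intron of Klf13), Stk40, a kinase, Hspg2, which encodes perlecan, Myl1, the fast myosin light chain, Mir1904 (within an intron of the phosphodiesterase gene Pde4d), Rcsd1 and Mbnl1, a splicing regulator. The Tob2 sites were the strongest as a group, with signals of 24.0, 25.9, 28.5, 23.2 and 17.9. At Myl1 (chr1:66931097-66946486) the signals were 16.2, 11, 15.6, 10.7 and 11.5, and 2 of the 5 sites overlapped a Quad MED1 peak. Of these 5 sites, 4 lay within 2000 bp of a reference TSS (126, 1363, 80 and 359 bp). Its H3K27ac level was 8.01 and 7.97 in Quad and 8.35 and 8.37 in EDL, against 7.05 and 6.79 in Sol and 7.37 and 7.98 in Dia. The Sol replicates lay below all Quad and EDL replicates. Other enhancers of the 10 also had a site close to a reference TSS. The nearest lay at 122 bp for Usp2, 127 for Stk40, 137 for Hspg2, 228 for Mir1904, 564 for E030018B13Rik and 687 for Ip6k3.

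**Figure D3:**
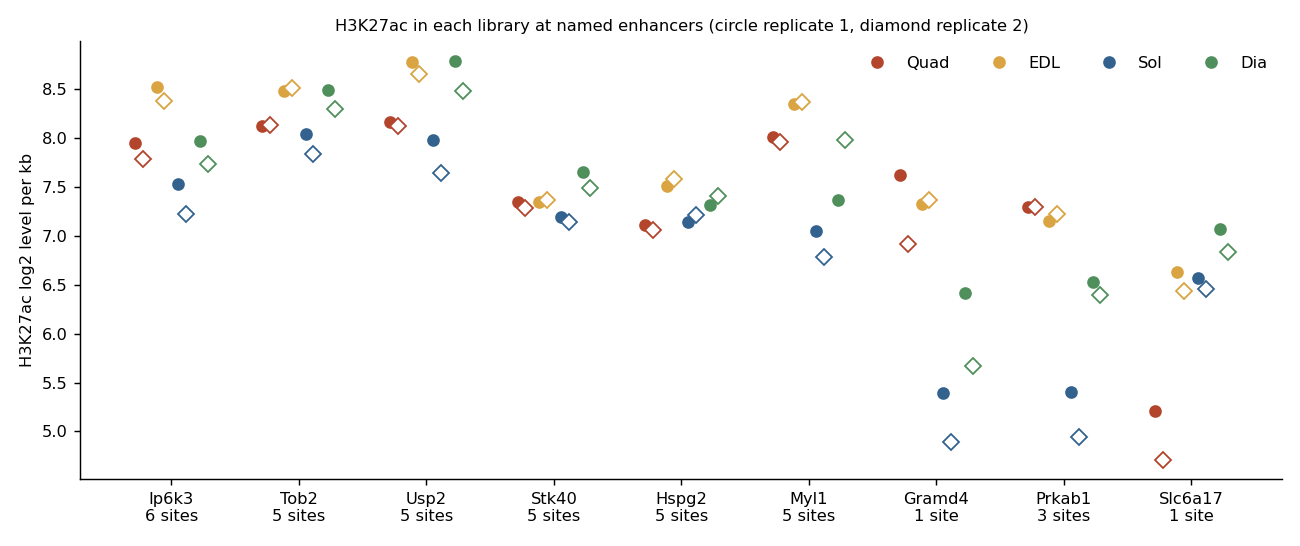
H3K27ac level (log2 per kb) in each library of Quad, EDL, Sol and Dia at 9 named member enhancers, with the number of member sites under each gene; circles are replicate 1 and diamonds replicate 2, levels are not centred, and each muscle's level is that of its own matching peak. Stk40 and Hspg2 lie close together in all muscles, the 2 Sol points lie lowest at Myl1, Gramd4 and Prkab1, and the 2 Quad points lie lowest at Slc6a17.

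By nearest gene, as the deposited lists assign it, 5192 of 17367 genes had a member site (29.9%). A gene's length and the spacing of its neighbours set how many sites can be assigned to it, and nearness does not show that a site acts on the gene. The most sites were assigned to Mir1904 (15 sites in 11 enhancers). Mbnl1 had 13 in 4, Nfia, which encodes a nuclear factor I protein, 13 in 11, and Bcor, a corepressor, 13 in 10. 9430078K24Rik, A330074K22Rik and Dab2ip had 12 each, and E030018B13Rik and Sgms1, a sphingomyelin synthase, had 11 each. The sites of Mbnl1 were thus packed into few enhancers and those of Nfia were spread over many.

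Gene groups differed in how many of their genes had a member site, read against the 29.9% of all nearest genes. Of sarcomere and Z-disc genes 18 of 34 (52.9%) had one, most of all Myl1 with 9, the giant scaffold genes Neb with 7 and Ttn with 6, and Myot with 5. Of excitation-contraction coupling genes 8 of 17 (47.1%) had one, led by Jph2 with 9 and Jph1 with 8, the junctophilins that hold the triad together, and by Camk2b with 5. Glycolysis and glycogen genes had one in 15 of 20 (75%), among them Ppp1r3a, a glycogen-targeting phosphatase subunit, with 6, and the phosphorylase kinase subunit Phka1 with 5. Genes of fatty acid uptake and oxidation had one in 10 of 20 (50%), with 4 for Acacb and 3 each for Acsl1 and Pdk4. Of myogenic and fiber-type factors 14 of 19 (73.7%) had one, led by Tead1 (11), Mef2c (10), Hdac4 (9) and Sox6 (9). Of nuclear receptors and coactivators 14 of 18 (77.8%) had one, led by Rora (11), the glucocorticoid receptor gene Nr3c1 (10) and Rxra (6). Growth and atrophy genes had one in 11 of 15 (73.3%), with 7 for Ddit4, an mTOR inhibitor. Neuromuscular junction genes had one in 3 of 11 (27.3%; Chrna1, Chrne and Musk, 1 each) and clock genes in 4 of 10 (40%), led by Cry2 (4) and Arntl (3). A count per list is a description of that list, and gene length differs among lists. Myh7 and Tnnc1 of the sarcomere list and Hdac5 of the factor list were nearest to no Quad peak, so they could not have had a member.

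Fiber-type genes varied in whether they had distal sites. None of 8 listed fast-fiber genes (Myh4, Myh1, Pvalb, Actn3, Mylpf, Tnnt3, Tnni2 and Atp2a1) had a member, while 6 of the 8 (75%) had an ATAC peak with both marks near a TSS, against 47.4% of all nearest genes. Other fast-fiber genes, named here after their values were seen and because they had members, were Myl1 with 9, and Tnnc2 and Myh2 with 1 each. Tnnc2 is the fast troponin C gene and Myh2 a fast myosin heavy chain gene. Mybpc2, the fast myosin-binding protein C gene, and Casq1, the fast calsequestrin gene, had 0. Of 6 slow-fiber genes, Tnni1, the slow troponin I gene, had 1 member (signal 9.11), in an enhancer called in all 4 muscles. Myh7 and Tnnc1 were nearest to no Quad peak, so they could not have had one. As muscle tissue holds other cells, their markers were counted too. Endothelial markers had a member in 9 of 10 genes (90%), led by Kdr (5), Egfl7 (4), Pecam1 (4) and Flt1 (4). Fibroblast markers had one in 4 of 8, satellite cell markers in 2 of 7 (Pax7 had 0), smooth muscle and pericyte markers in 3 of 6, adipocyte markers in 2 of 5, Schwann cell markers in 1 of 4 and macrophage markers in 0 of 6. Plin1 and Cfd of the adipocyte list, Sox10 of the Schwann cell list and Cd68 of the macrophage list were nearest to no Quad peak. They could not have had a member, which lowers these shares. In bulk tissue, the cells that an accessible site comes from cannot be told apart.

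Most member enhancers were called in every muscle. The histone lists of EDL, Sol and Dia took no part in the rule. By overlap of at least 1 bp, 6094 member enhancers (67.8%, interval 66.9 to 68.8) were called for H3K27ac in all 4 muscles, 760 (8.46%) in Quad and EDL only, 593 in Quad, EDL and Sol, 565 in Quad, EDL and Dia, 487 (5.42%) in Quad with Sol and/or Dia but not EDL, and 483 (5.38%) in Quad alone. Taken by muscle, 89.2% were called in EDL, 78.4% in Sol and 77.6% in Dia. Site-free regions were called in all 4 muscles in 29.8% of cases and in Quad alone in 24.9%, and all Quad H3K27ac peaks in 51.1% and 16.7%. With at least 50% reciprocal overlap the share of member enhancers in all 4 muscles was 42.0% and in Quad alone 13.6%, so these shares depend on how overlap is counted. H3K4me2 peaks with members were called in all 4 muscles in 49.0% of cases, site-free H3K4me2 peaks in 27.1%, and all Quad H3K4me2 peaks in 53.4%. For this mark members were thus shared less than all peaks, promoters included.

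Width moved strongly with sharing. In the narrowest quintile 20.7% of member enhancers (interval 18.3 to 23.4) and 12.1% of site-free regions (10.9 to 13.6) were called in all 4 muscles. In the middle quintile the values were 62.1% and 43.4%, and in the widest 92.7% (91.6 to 93.7) and 78.0% (72.7 to 82.5). Member enhancers had the higher share in all 5 quintiles, with intervals that did not overlap. By number of sites, 64.2% of enhancers with 1 site, 89.0% with 2, 153 of 154 with 3 and 45 of 45 with 4 or more were called in all 4 muscles. Signal followed the same order: the median was 9.18 at sites in enhancers of all 4 muscles, 6.14 in those of Quad and EDL only and 4.87 in those of Quad alone, where width was 902 bp at the median against 3095 bp. Weak, narrow peaks are more easily missed in another list, and how far this accounts for Quad-only calls was not tested.

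**Figure D4:**
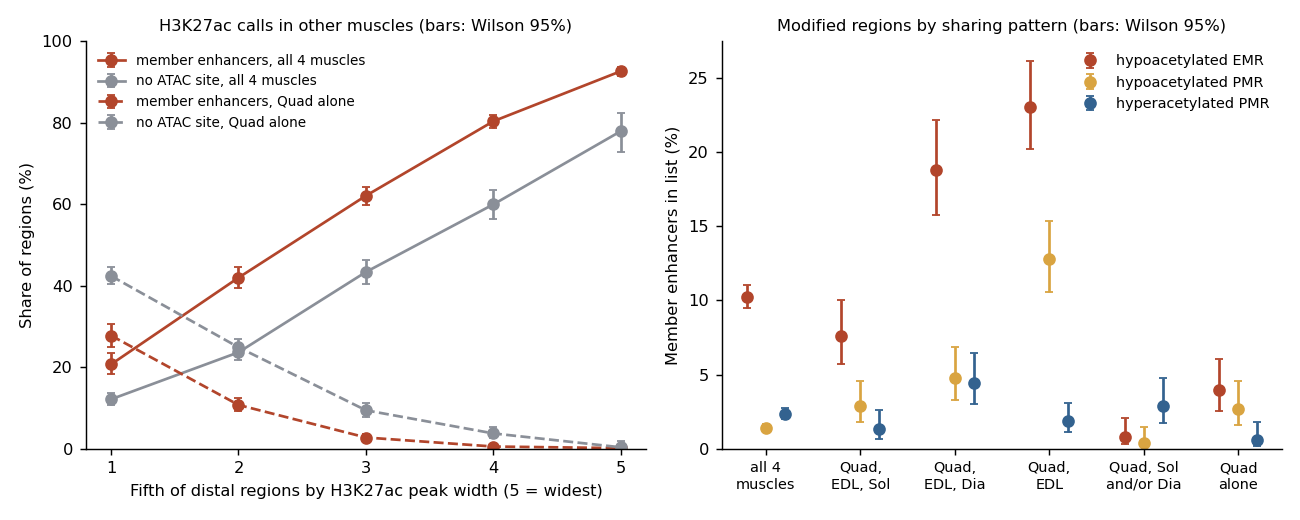
Left, share in percent of member enhancers and of site-free distal regions called for H3K27ac in all 4 muscles (solid) or in Quad alone (dashed), by quintile of peak width; right, share of member enhancers in 3 lists of modified regions by sharing pattern, bars being Wilson 95% intervals over regions. The share in all 4 muscles rises from 20.7% to 92.7% for members and from 12.1% to 78.0% without a site. Of member enhancers of Quad and EDL only, 23% lie in a hypoacetylated EMR, against 5.32% of all Quad H3K27ac peaks of any pattern.

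Examples show the patterns. The Smox enhancer (spermine oxidase, a polyamine enzyme), 11319 bp wide with 2 sites, was called for H3K27ac in Quad and EDL only, with Quad levels of 6.94 and 6.84, although its H3K4me2 was called in all 4 muscles. The Tsks enhancer, also of Quad and EDL only, had levels of 5.34 and 5.89 in Quad and 5.77 and 6.28 in EDL, and 1700096P03Rik had 5.88 and 5.99 against 6.14 and 6.18. Of enhancers called in Quad alone, Vsig10l (5.01 and 5.29), Dcp2 (4.91 and 5.10) and C530044C16Rik (5.52 and 5.23) held 2 sites each. Their levels were below the median of member enhancers, 6.12 and 6.11. The Jun enhancer, called in Quad and Sol but not EDL, had 5.67 and 5.66 in Quad and 5.86 and 5.93 in Sol, which were close.

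Among enhancers with a matching peak in the other muscle, more were over 2-fold lower than over 2-fold higher in Sol and Dia. An enhancer was counted when its matching peak (50% reciprocal overlap) differed by over 1 on the log2 scale between means and no replicate of one muscle overlapped the other. Only 74.4% of member enhancers had a match in EDL, 60.1% in Sol and 59.1% in Dia, and those without one, lost peaks included, could not be counted. The median shift over all shared peaks, 0.34 for EDL, 0.06 for Sol and 0.46 for Dia, was removed first. In EDL 19 of 6679 matched member enhancers (0.284%) were higher than Quad, against 0.382% of all shared H3K27ac peaks, and 11 (0.165%) were lower, against 0.262%. In Sol 36 of 5399 (0.667%) were higher, against 1.25% of all, and 248 (4.59%, interval 4.07 to 5.18) were lower, against 2.49%. In Dia 47 of 5306 (0.886%) were higher, against 1.59%, and 211 (3.98%, interval 3.48 to 4.54) were lower, against 2.67%. The Quad libraries also chose the members, so these directions are a description and have no test. The counts of higher enhancers depended on Quad replicate 1: without it they rose by over 1.5 times in EDL, Sol and Dia. Leaving out a library leaves 1 value on its side, which loosens the rule that replicates do not overlap. Other single libraries also moved counts by over 1.5 times, namely EDL higher (12 without EDL replicate 1 and 43 without EDL replicate 2), EDL lower (34 and 21 without Quad replicates 1 and 2, and 43 without EDL replicate 2), Sol higher (59 without Sol replicate 2) and Dia higher (78 without Dia replicate 2).

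Among the enhancers lower in Sol, the largest differences were at Gramd4, Prkab1 and Sh2d4a. The enhancer assigned to Prkab1, which encodes a subunit of the energy sensor AMPK, lay in an intron of Tmem233 and held 3 sites. Its level was 7.30 and 7.30 in Quad and 7.16 and 7.23 in EDL, but 5.40 and 4.94 in Sol and 6.52 and 6.39 in Dia. All Sol and Dia replicates lay below all Quad and EDL replicates. The Gramd4 enhancer had 7.62 and 6.92 in Quad, 7.33 and 7.37 in EDL, 5.39 and 4.89 in Sol, and 6.42 and 5.67 in Dia. Sh2d4a had 7.15 and 7.47 in Quad against 5.07 and 5.39 in Sol. The centred differences of Sol from Quad were -2.19, -2.19 and -2.14 for Gramd4, Prkab1 and Sh2d4a, and all 3 enhancers overlapped a region that was hypoacetylated with exercise. Higher in Sol were enhancers assigned to the endothelial gene Emcn (4.12 and 4.15 in Quad, 5.93 and 6.11 in Sol), the transporter gene Slc6a17 (5.21 and 4.71 against 6.57 and 6.46) and the Z-line gene Pdlim1 (5.57 and 4.69 against 6.97 and 6.36). The Emcn enhancer lay at -189839 bp from the Emcn TSS. Slc6a17 was also higher in EDL (6.63 and 6.43), as were Trio, a guanine nucleotide exchange factor gene (6.25 and 5.91 in Quad, 7.92 and 7.61 in EDL) and Myh14 (5.10 and 4.43 against 6.42 and 6.25). Lower in EDL were Dapk1 (6.07 and 6.22 in Quad, 5.02 and 5.46 in EDL), 1810007C17Rik (5.83 and 6.39 against 5.09 and 5.37) and Ncoa1, a nuclear receptor coactivator gene (6.17 and 5.60 against 4.88 and 5.21). The Trio, Myh14 and Ncoa1 enhancers held 1 site each, and these lay close to a reference TSS. The distances were 264 bp (Trio), 38 bp (2310016G11Rik) and 338 bp (2900045O20Rik). The EDL differences of Slc6a17 and Myh14 dropped below the threshold without Quad replicate 2 (0.96 and 0.88), as did 1810007C17Rik (-0.95), and Ncoa1 did so without Quad replicate 1 (-0.88).

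Other Quad libraries took no part in the rule. H3K27ac was called at 85.0% of them in Sed, 88.6% in Wt, 76.6% in Ex and 75.7% in mTg, and at 57.8% in all 4 of these groups. All Quad H3K27ac peaks were called again in 69.0%, 75.7%, 65.3% and 61.1%, and in all 4 groups in 41.8%, and site-free regions in 55.4%, 66.9%, 48.6% and 46.7%. There were 255 member enhancers (2.84%) called in none, against 10.3% of all Quad peaks and 13.9% of site-free regions. H3K4me2 differed from this. Member H3K4me2 peaks were called again in 68.3% in Sed, 75.3% in Wt, 61.3% in Ex and 44.2% in mTg, against 66.0%, 73.9%, 62.3% and 53.2% of all Quad H3K4me2 peaks, and in all 4 groups in 32.3% against 42.8%. The mTg H3K4me2 list held 27527 peaks, and its replicate 1 had 6.41 M tags, the fewest of all histone libraries. Each list came from its own libraries and depths (for H3K27ac 34031 peaks in Sed, 49010 in Wt), so shares between groups are not a measure of change.

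Member enhancers were found more in the regions that lost acetylation with exercise than Quad peaks as a whole. The authors listed regions with changed H3K27ac in Ex against Sed (exercise-modified regions, EMRs) and in mTg against Wt (PGC1α-modified regions, PMRs). Of member enhancers, 974 (10.8%, interval 10.2 to 11.5) overlapped a hypoacetylated EMR, against 5.32% of all Quad H3K27ac peaks, and 22 (0.245%) a hyperacetylated EMR, against 0.469%. For PMRs, 240 (2.67%) overlapped a hypoacetylated one, against 1.79%, and 207 (2.30%) a hyperacetylated one, against 2.51%. Seen from the lists, 935 of 2280 hypoacetylated EMRs (41.0%) held a member site, 22 of 382 hyperacetylated EMRs (5.76%), 223 of 844 hypoacetylated PMRs (26.4%) and 193 of 1828 hyperacetylated PMRs (10.6%). A Quad ATAC peak of any class lay in 77.5%, 28.8%, 66.0% and 42.7% of these lists, in the same order. The rule asked for peaks of control Quad, so it favoured the hypoacetylated lists from the start, and the lists cannot be compared by these shares. Width moved with these shares. In the widest quintile 16.5% of member enhancers (interval 15.1 to 18.0) and 6.86% of site-free regions (4.43 to 10.5) overlapped a hypoacetylated EMR, whereas in the second quintile the shares were 5.03% and 4.11% with overlapping intervals.

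Shares in the hypoacetylated lists differed by sharing pattern. Of the 760 enhancers of Quad and EDL only, 175 (23%, interval 20.2 to 26.2) overlapped a hypoacetylated EMR and 97 (12.8%, interval 10.6 to 15.3) a hypoacetylated PMR, against 10.3% and 1.38% of the enhancers of all 4 muscles. The enhancers of Quad, EDL and Dia were close to them for EMRs, at 18.8% (interval 15.8 to 22.2, which overlapped), and had 4.78% (3.30 to 6.86) in hypoacetylated PMRs. Those of Quad with Sol and/or Dia but not EDL overlapped these lists in 0.821% and 0.411%. Over all Quad H3K27ac peaks of any pattern the shares were 5.32% and 1.79%. Shares for all Quad peaks of the same sharing pattern were not computed, so these values cannot be read as particular to members. The 97 made up 40.4% of the 240 member enhancers in hypoacetylated PMRs. Of the 437 member enhancers in hypoacetylated EMRs that had a matching Sol peak, 75 (17.2%) were lower in Sol by the 2-fold rule and 0 were higher. Among all matched member enhancers the shares were 4.59% and 0.667%, and among all shared H3K27ac peaks 2.49% and 1.25%. Members and hypoacetylated EMRs were both chosen by acetylation in sedentary Quad. For all Quad peaks in these EMRs, the share lower in Sol was not computed. Both hypoacetylated lists held 88 member enhancers (0.980%, against 0.488% of all Quad peaks). A hypoacetylated EMR and a hyperacetylated PMR held 14 (0.156% against 0.134%), a share near that of all peaks. Named after the values were seen, the 14 included enhancers near Paqr9, Sgcd, a dystrophin-associated sarcoglycan gene, and Tbc1d4, a regulator of glucose transport. Sed and Wt were separate control groups, so these overlaps rest on different libraries.

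The lists give a log2 level for each library, here not divided by width and set beside each other only within a list. The region in the first intron of Jph2 held 6 member sites and had 11.81 and 11.81 in Sed against 11.09 and 10.84 in Ex. The Mir1904 region in Pde4d, with 6 sites, had 12.72 and 12.12 against 11.63 and 11.08. Myl1, with 5 sites, had 11.30 and 11.41 against 10.57 and 10.46. Neither group overlapped the other in any of the 3, as the authors' selection of these regions favours. Of hyperacetylated EMRs, A430035B10Rik went from 6.27 and 6.36 to 7.0 and 7.13, Sulf1, an extracellular sulfatase gene, from 6.23 and 6.19 to 6.82 and 6.86, and Ppp4r2 from 5.27 and 5.16 to 5.68 and 5.85, each with 1 site. With the transgene, Smox went from 9.96 and 10.03 in Wt to 8.41 and 8.20 in mTg, Trim29 from 8.38 and 8.43 to 7.53 and 7.46, and Sorl1 from 8.78 and 8.97 to 7.63 and 7.77. Coq8a, a gene of coenzyme Q synthesis, went from 11.03 and 11.17 to 12.20 and 12.00, Ppip5k1 from 8.57 and 8.50 to 9.44 and 9.45, and Herpud2 from 8.55 and 8.72 to 9.51 and 9.49. The Smox region lay in both hypoacetylated lists.

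MED1, a subunit of the mediator complex that links enhancers to RNA polymerase, was found at few member sites. Peaks of the 1 Quad MED1 library overlapped 101 member sites (0.963%, interval 0.793 to 1.17), against 5.94% of ATAC peaks with both marks near a TSS and 0.146% of those with neither mark. Of the 101 sites, 49 lay within 2000 bp of a reference TSS. Signal was 13.7 at the median of these 101 sites and 7.97 at the others. Counted over whole enhancers, 316 (3.52%) overlapped a Quad MED1 peak, against 0.450% of site-free regions and 3.76% of all Quad H3K27ac peaks. The share was 2.29% with 1 site, 8.47% with 2, 20.8% with 3 and 40.0% (interval 27 to 54.5) with 4 or more. These enhancers were also wider, and the part of width was not tested. MED1 of EDL overlapped 35 member sites (0.334%, against 0.374% of all ATAC peaks), of Sol 100 (0.953% against 1.51%) and of Dia 121 (1.15% against 1.82%), and the Quad share of 0.963% stood against 1.75%. Members were thus near or below all ATAC peaks in each muscle. In all, 12 sites had a MED1 peak in all 4 muscles. The strongest of the 12, named after their values were seen, lay near Trim55, a ubiquitin ligase gene of the sarcomere (signal 25), Shf (22.5) and Alox5ap (22.5). A pair of them sat at small RNA genes, 49 bp from Rnu1a1 and 108 bp from Gm25313.

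NFAT, a calcium-dependent transcription factor, overlapped 5 member sites in Quad, near Gm5069 (signal 31.3), 1700020N01Rik (11), Syne3 (8.61), Adgrf5 (5.89) and Nfkbiz (4.30). None of the 5 had a Quad MED1 peak. NFAT of Sol overlapped 55 (0.524%), against 0.559% of all ATAC peaks. With 1 library per muscle and 485 Quad NFAT peaks against 39661 in Sol, muscles cannot be compared.

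Member sites lay between promoter peaks and peaks with neither mark in GC content, CpG number and several words, SP1 and AP-1 among them. In 200 bp around the centre, AP-1 words were in 12.2% of members, 3.88% of peaks near a TSS and 12.5% with neither mark. For MEF2 words, E-boxes, nuclear receptor words and NFY words, members did not lie between. In 200 bp around the centre the median GC content was 52% against 64% near a TSS and 50.5% with neither mark, and the mean number of CpG was 4.55 against 15.7 and 2.72. MEF2 words and E-boxes were more frequent in members (7.33% and 25.6%) than near a TSS (2.52% and 13.4%) or with neither mark (4.59% and 22.6%), and NFY words were less frequent (21.6% against 30.9% and 23.3%). SP1 words were in 13.0% of members, 57.8% of promoter peaks, 4.84% of peaks with neither mark and 21.9% of all ATAC peaks. E-boxes were in 25.6% of members against 21.4% of all ATAC peaks, MEF2 words in 7.33% against 4.90%, nuclear receptor words in 20.2% against 16.3% and AP-1 words in 12.2% against 10.4%. Promoter peaks lower the share over all peaks. Among peaks over 2000 bp from a reference TSS, members and non-members had an E-box in 26.2% and 24.4%, a MEF2 word in 7.57% and 5.24%, a nuclear receptor word in 20.9% and 18.9% and an AP-1 word in 12.6% and 13.3%, so that AP-1 turned direction. MEF2 matches were densest at the centre, with 13.6 per 1000 members in the 20 bp right of it and 3.15 and 2.57 at the outer edges, against 6.26 at the same place and 3.17 and 3.69 at the edges in peaks with neither mark. NFAT words in members stayed between 21.6 and 25.5 across the window. Words had to lie wholly inside the window, so the outermost steps held fewer possible positions. Edge values are therefore too low in both classes, more so for longer words such as MEF2.

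**Figure D5:**
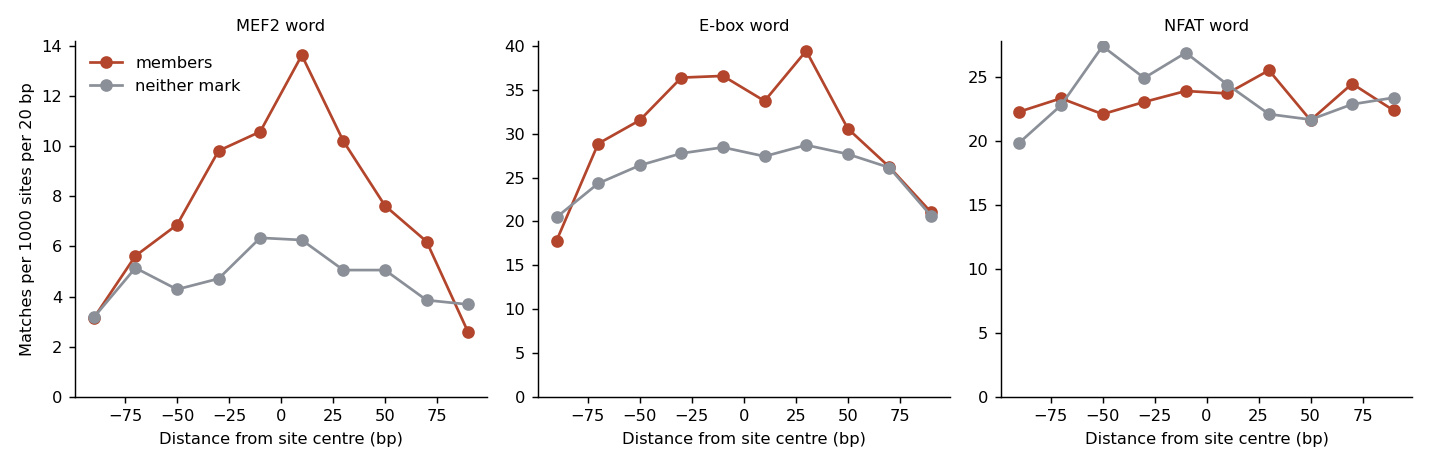
Matches per 1000 sites in steps of 20 bp against distance in bp from the site centre, for the MEF2, E-box and NFAT words in members and in ATAC peaks with neither mark. MEF2 matches in members reach 13.6 beside the centre, against 6.26 with neither mark. The outermost steps hold fewer possible word positions, so their values are too low in both classes.

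Words differed with the behaviour of the enhancer. At the 1148 member sites in hypoacetylated EMRs, MEF2 words were in 10.5%, nuclear receptor words in 26.7% and SP1 words in 4.18%, against 7.33%, 20.2% and 13.0% of all members. At the 236 sites in hypoacetylated PMRs nuclear receptor words were in 28.0% and MEF2 words in 6.78%, and at the 208 in hyperacetylated PMRs in 26.0% and 8.65%. Of the 22 sites in hyperacetylated EMRs, 9 held an AP-1 word (40.9%, interval 23.3 to 61.3), against 12.2% of all members, and 0 held an SP1 word. Sites in enhancers of Quad and EDL only had an SP1 word in 5.87% and those in enhancers of all 4 muscles in 14.8%, beside mean CpG numbers of 3.30 and 4.94. Among the sites over 2000 bp from a reference TSS the gap was smaller, with SP1 words in 5.24% and 11.3% and CpG numbers of 3.19 and 4.14. This split by TSS distance was not made for the sites in the modified lists.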

How the data were processed

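ATAC-seq and ChIP-seq of mouse skeletal muscle were measured in the samples given above. Per the submitters' processing notes, reads were aligned with Bowtie 1.2 and peaks were made with HOMER on mm10. The paper's methods differ, naming another version of Bowtie for ChIP-seq and Bowtie2 for ATAC-seq. The deposited histone lists hold log2 tag values per library, made by the authors with DESeq2 within each list, and one call per group over 2 replicates. The deposited ATAC and factor lists hold a signal in tags per 10 M and the score of the peak caller, and the authors also deposited a fold over the local region, used here only as a ratio for description. ATAC peaks had to reach 4 times the tag density of the surrounding 10000 bp, at a false discovery rate of 0.001, per the file headers. Any shift of reads for the transposase was not given in the sources used here. The fold changes and p-values of the authors' own comparisons were not used, except that region lists were taken as given, nor were bed files of the mm9 build. Columns of other samples numbered 0.

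Overlaps of at least 1 bp, medians, Wilson intervals and word matches were computed with Python 3.11.15, numpy 2.4.6, pandas 2.3.3 and scipy 1.17.1, and the overlap and call steps were tested on simulated data. Places and TSSs came from the basic GENCODE vM21 annotation. Levels between muscles were compared as means of 2 replicates after removal of the median difference. No p-value was computed, since regions are not replicates and Quad libraries chose the members. The members and gene lists were chosen with earlier results of these data known. Named were the 10 enhancers with the most sites, the 5 strongest sites, the 10 genes with the most sites, 3 enhancers per sharing pattern, 2 to 4 genes per list, 3 regions per modified list and 3 enhancers per direction between muscles. An item that this rule names is not reported here. Alternatives in the rule, the overlap, the fold and the libraries were tried.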

Additional observations from a re-analysis of the deposited data

How the results depend on the processing

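No paired analysis was possible because the results come from no test between groups. Where at least 50% of an ATAC peak had to lie in each histone peak, 69.9% of member enhancers were called in all 4 muscles, 4.86% in Quad alone and 7.90% in Quad and EDL only. Over 5000 bp from a TSS, 12.6% of enhancers had 2 or more sites, median signal was 7.78, 66.5% were called in all 4 muscles and 0.688% of sites had Quad MED1. Without ATAC peaks within 2000 bp of a reference TSS these were 11.7%, 7.78, 66.7% and 0.571%. With histone peaks of at least 4-fold over input, 4947 sites and 3852 enhancers remained, of which 22.9% had 2 or more sites; median signal was 9.87, 85.5% were called in all 4 muscles, 0.441% in Quad alone and 4.08% in Quad and EDL only, 1.66% of sites had Quad MED1, and 13.1% and 0.0519% of enhancers were in hypo- and hyperacetylated EMRs and 2.34% and 1.48% in hypo- and hyperacetylated PMRs. With the higher-scoring 50% of ATAC peaks there were 6215 sites in 5198 enhancers, with 15.6% of 2 or more sites, a median signal of 10.9, 80.5% in all 4 muscles, 1.35% in Quad alone, 5.68% in Quad and EDL only, 1.46% with Quad MED1, 12.6% in hypo- and 0.0192% in hyperacetylated EMRs and 1.90% in hyperacetylated PMRs. Sharing in all 4 muscles, Quad alone and Quad and EDL only was 42.0%, 13.6% and 13.8% with 50% reciprocal overlap and 64.8%, 6.19% and 9.31% for the site itself, and with equal numbers of peaks per muscle 70.1% were in all 4 and 3.99% in Quad alone. With 80% reciprocal overlap the counts over 2-fold higher and lower were 3 and 5 for EDL, 9 and 69 for Sol and 7 and 63 for Dia, and at 1.5-fold 240 and 278, 296 and 796, and 316 and 739. Leaving out each library in turn gave 12 to 66 enhancers higher and 13 to 43 lower for EDL, 33 to 86 and 230 to 335 for Sol, and 41 to 107 and 235 to 258 for Dia. Undivided by width, the level of enhancers with 2 or more sites exceeded that of 1 site by 2.10 in place of 0.82. All members minus other ATAC peaks differed for E-boxes by 5.42 percentage points and for MEF2 by 3.18, with 2.44 in 100 bp. Against only those other peaks over 2000 bp from a reference TSS, the differences were 1.24 for E-boxes and 2.09 for MEF2. Only the comparison peaks were restricted here, and members within 2000 bp of a reference TSS were kept. The word shares given above for peaks over 2000 bp leave such members out, so the differences are not the same. With this comparison the difference turned direction for the ERR (-0.0742), AP-1 (-1.15), TEAD (-0.508), RUNX (-1.81), NFAT (-0.996) and SP1 (6.93) words. The causes of these shifts were not tested.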
